A study of Mus musculus with 31 samples.

Results

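Heme synthesis was followed through 9 genes measured in 31 mouse RNA-seq libraries of expandable hemangioblasts (eHBs), their blood and endothelial progeny, and control cells. The genes are Alas1, Alas2, Alad, Uros, Urod, Cpox, Ppox, Fech and Slc25a38, a list of enzymes of the pathway plus 1 carrier that was chosen by name, and all 9 of 9 were found among the 20314 genes of both deposited tables. A hemangioblast is a progenitor that can form both blood and endothelium, the lining of vessels. The blood libraries came from 5 eHB lines cultured with CHIR99021, SCF, IL-3 and Flt3L at 1.5% oxygen. They were sorted on day 3 for VE-cadherin and CD45 together (n = 5), and on day 2 for VE-cadherin without CD45 (n = 5). Endothelial cultures (day 3, n = 5, unsorted) held VEGF, 8-bromo-cAMP, SB431542, BMP4 and FGF2 without doxycycline. The eHB cells themselves (n = 5) were kept with 2 µg/mL doxycycline. The pair of lines derived from embryonic stem (ES) cells, RB3.6.5 and RB4.6.9, also received the 5 endothelial factors, while M5, derived from embryonic fibroblasts, and FL4 and FL10, derived from fetal liver, received FGF2 alone. All 5 lines carry introduced transcripts of transcription factors (Tal1, Sox17, Mycn, Lmo2 and Gata2 are some of them), so every eHB, endothelial and blood library comes from an engineered line, and each line is 1 replicate. Controls were Kdr-positive mesoderm made over 4 days from ES lines RB2, RB3 and RB4 (n = 3), the same ES lines in CHIR99021, PD0325901 and LIF (n = 3), fetal hematopoietic stem cells of stage E14.5 (HSCs, 1 library), and endothelium sorted for VE-cadherin and Pecam1 at stage E11.5 from yolk sac (n = 2) and embryo (n = 2). No label says whether the primary endothelial replicates came from separate animals, so p-values for those groups may measure technical spread alone.

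Heme is an iron-holding ring that carries oxygen in hemoglobin and electrons in cytochromes. Its synthesis starts in mitochondria, where 5-aminolevulinate synthase (ALAS) joins glycine and succinyl-CoA, goes on in the cytosol and returns to mitochondria for the last steps. Nearly all cells make ALAS from Alas1, a gene that heme itself represses, while red cell precursors use Alas2, a gene switched on by erythroid transcription factors such as GATA1 and held back at translation when iron is short.

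A stretch of the Alas2 promoter and the iron-sensing hairpin of its RNA are shown first because Alas2 has the widest range of the 9 genes. Sequences are RefSeq promoter windows on GRCm38.p6, 250 bases before to 50 bases after each start, and 8 of the 9 genes were matched. The stretch of Alas2 lies on the plus strand of chromosome X at chrX:150547167-150547374, just before the GENCODE start of the gene, and its capitals mark a match to the GATA-type motif AGATAA, read here on the other strand as TTATCT.
Alas2 promoter: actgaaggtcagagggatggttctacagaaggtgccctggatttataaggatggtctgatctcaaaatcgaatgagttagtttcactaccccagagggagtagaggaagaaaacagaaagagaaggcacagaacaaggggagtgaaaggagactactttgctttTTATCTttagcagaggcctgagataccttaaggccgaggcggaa
AGATAA, searched on both strands, lies at position -86 from the RefSeq start of Alas2 and in neither of the 2 windows of Alas1; of the 8 matched genes, 2 had a match (Alas2 and, at position 4, Cpox), against 11.2% of the 32851 windows in the table. CACCC, a core that KLF-type factors bind, had 3 matches on either strand in the Alas2 window, downstream of the stretch above, and was found in 6 of the 8 genes and in 57.5% of all windows. For both motifs a gene was counted for a match in any of its windows, and Alas1, Alad and Uros have 2 each. The background counts single windows, so the units differ. The next stretch is the iron-responsive element in the 5′ UTR of Alas2, with its 6-base loop in capitals, taken from a GENCODE transcript. The 5 bases before the loop can all pair with the 5 after it (5 of 5, G-T pairs allowed).
Alas2 element: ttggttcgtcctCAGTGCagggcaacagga
Iron regulatory proteins bind this hairpin and hold back translation, so the RNA levels given here do not measure how much Alas2 protein was made. A motif match is a description of letters in a window and shows no binding.

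The libraries held 9424412 to 79497758 expected counts. The summed level of 8 endothelial markers was 5961 to 8033 TPM in endothelial cultures and 121 to 351 TPM in eHB cells, and it reached 1352 TPM in day 2 blood of RB4.6.9. That of 6 leukocyte markers was 2521 to 3256 TPM in day 3 blood and 3.62 to 11.6 TPM in eHB cells, with 250 to 294 TPM in ES cells. TPM, a transcript abundance corrected for gene length, is scaled to 1 total in every library, so levels of different genes can be set side by side. Red cell transcripts were not evenly spread among libraries of a group, and their part in the Alas2 levels was not tested. The sum of 7 globin genes in day 2 blood was 78465 TPM in line M5 and 71710 in FL4, against 7402 in FL10, 5083 in RB3.6.5 and 3663 in RB4.6.9. In day 3 blood it was 23430 TPM in RB3.6.5 and 1141 to 3678 in the other 4 lines, in endothelial cultures 3043 TPM in M5 and 2.49 to 179 in the others, and in embryo endothelium 48199 and 3406 TPM. Megakaryocyte markers were uneven as well. The sum of 6 of them was 20846 TPM in day 2 blood of M5 and 595 (FL4) to 3019 TPM in the other day 2 lines, 11975 TPM in day 3 blood of RB3.6.5 and 481 to 5119 TPM in the other day 3 lines, and 1558 TPM in endothelial cultures of M5 and 63.4 to 157 TPM in the others, against 1.45 to 81.6 TPM in eHB cells. Their part in the levels of the 9 genes was not tested. Of the 10 measured erythroid markers, 9 averaged at least 1 TPM in day 2 blood and 5 in eHB cells, and their sum was 105 to 884 TPM in day 2 blood and 1.10 to 66.2 TPM in eHB cells. In bulk RNA a lower level can mean fewer cells of a type or less RNA per cell, and these cannot be told apart here.

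**Figure D1:**
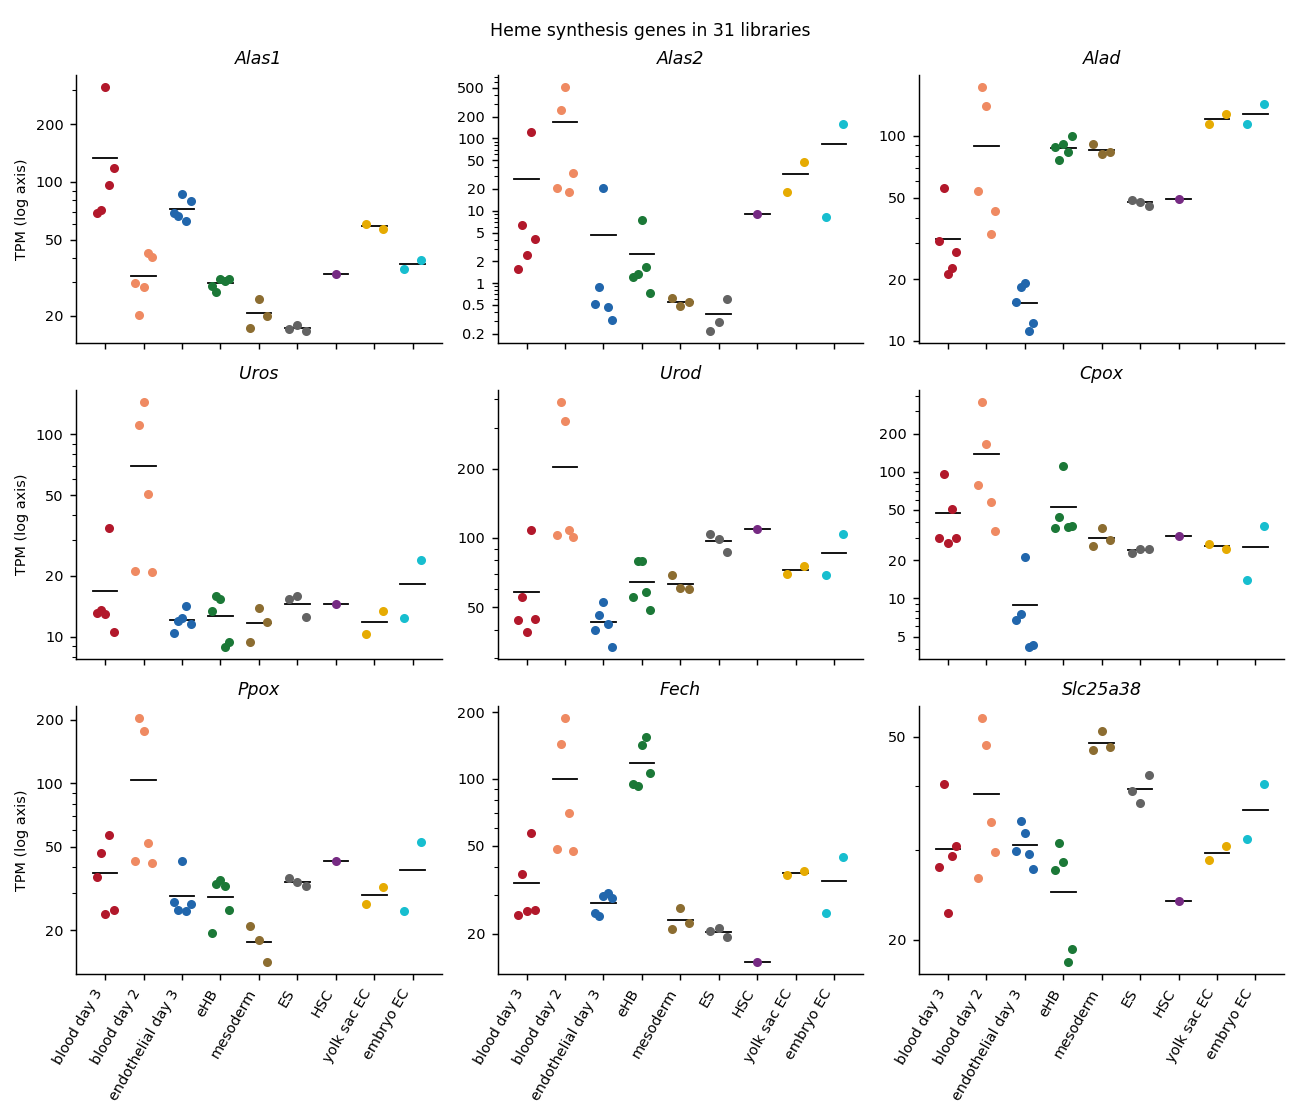
Levels of the 9 heme synthesis genes in every library (points, TPM on a log axis) by group, with the group mean as a bar. Alas2 spans the widest range, from 0.218 TPM in an ES library to 518 TPM in day 2 blood of line M5, and Slc25a38 the narrowest.

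Over the 9 groups, 5 of the 9 genes had their highest group mean in day 2 blood: Alas2, Uros, Urod, Cpox and Ppox. Of the others, Alas1 was highest in day 3 blood, Alad in embryo endothelium, Fech in eHB cells and Slc25a38 in mesoderm. For each gene highest in day 2 blood, the range overlapped that of the next group, and M5 and FL4 held the highest day 2 values. By median, Alas2 was higher in embryo endothelium (83.5 TPM) than in day 2 blood (33.0 TPM). Urod was slightly higher in the single HSC library (109.8 TPM) than in the day 2 median (108.1 TPM). Uros, Cpox and Ppox were highest in day 2 blood by median too. Endothelial cultures held the lowest group mean of Alad, Urod and Cpox. The ratio of the highest to the lowest group mean was 450 for Alas2, 15.6 for Cpox, 8.37 for Alad, 7.93 for Fech, 7.74 for Alas1, 5.92 for Uros, 5.89 for Ppox, 4.75 for Urod and 2.04 for Slc25a38. The erythroid ALAS isoform thus varied most of the 9 and the glycine carrier least.

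The 9 genes were then tested group against group with edgeR's quasi-likelihood test over all genes, and "called" means a Benjamini-Hochberg adjusted p under 0.05. In day 2 blood against eHB cells, 7 of the 9 were called and all 7 were higher, where 54.1% of all 12269 genes tested were called, 28.5% higher and 25.5% lower; the median log2 fold change was 2.19 over the 9 genes and 0.01 over all genes. Against endothelial cultures, all 9 of 9 were called in day 2 blood, 8 higher and 1 (Alas1) lower, at a background of 64.4% (32.9% higher, 31.6% lower), with a median of 2.94 against 0.04 over all genes. Day 3 blood against endothelial cultures gave 3 calls, all higher (Alas1, Alad, Cpox), at a background of 61.3% (31.1% higher), and the median was 1.00. Blood cultures of either day therefore stood above endothelial cultures for Alad and Cpox.

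From day 2 to day 3 in blood only Alas1 was called, 1 of 9 at a background of 10.2% (7.31% higher, 2.87% lower), and it was higher; the other 8 had negative log2 fold changes, -0.54 to -2.65, that did not pass, 6 of them with an unadjusted p under 0.05. This comparison is the least settled: DESeq2 and a fit of all groups together each called 7 of the 9, and leaving out 1 library gave 0 to 5 calls. Endothelial cultures against eHB cells had 5 calls at a background of 70.0% (34.3% higher, 35.6% lower): Alas1 was higher and Alad, Urod, Cpox and Fech were lower. In eHB cells against mesoderm 2 were called (Fech higher, Slc25a38 lower) at a background of 46.6% (23.5% higher, 23.1% lower). In mesoderm against ES cells 6 were called at a background of 79.1% (39.1% higher, 40.0% lower), with Alas1, Alad, Cpox, Fech and Slc25a38 higher and Ppox lower. On the TPM scale in limma 3 of these, Alas1 (0.23, adjusted p = 0.152), Cpox (0.31, adjusted p = 0.0519) and Fech (0.17, adjusted p = 0.195), did not pass. In endothelial cultures against embryo endothelium 3 were called at a background of 45.4%, with Alas1 higher and Alad and Urod lower. In yolk sac against embryo endothelium 1 was called, Alas1, which was higher, at a background of 24.4% (15.9% higher, 8.54% lower). Apart from day 2 blood against eHB cells and against endothelial cultures, the shares of members called lie near or below these backgrounds.

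**Figure D2:**
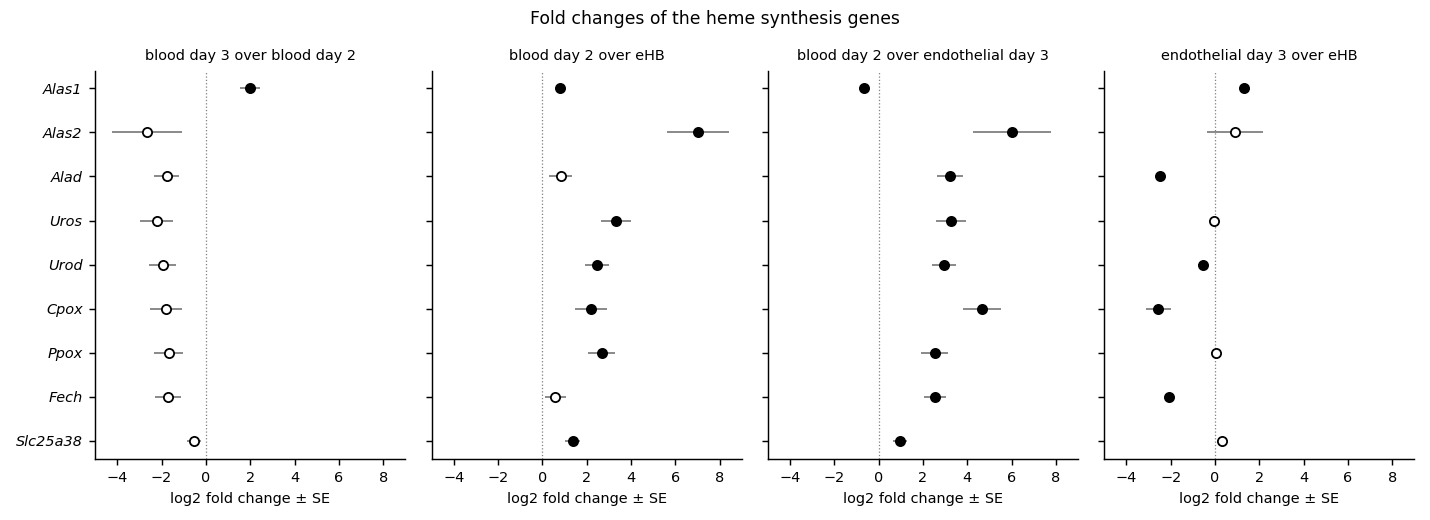
Log2 fold changes (points) with standard errors (lines) of the 9 genes in 4 comparisons, filled where the adjusted p was under 0.05 and open where it was not. Day 2 blood stands to the right of 0 for 7 called genes against eHB cells, and Alas1 is the 1 gene whose point lies on the other side of 0 from the remaining 8 in blood day 3 over day 2 and in blood day 2 over endothelial cultures.

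The choice of scale affects several comparisons. Where edgeR's TMM scaling kept the median of all genes near 0, on log2(TPM + 1) the median of all genes in limma was -0.56 for day 2 blood against eHB cells, -0.43 for day 2 blood against endothelial cultures, -0.34 for day 3 blood against endothelial cultures, -0.29 for mesoderm against ES cells and 0.27 for eHB cells against mesoderm. The split of called genes moved with it. For day 2 blood against eHB cells limma called 1703 higher and 5947 lower, where edgeR called 3498 higher and 3134 lower, and for day 2 blood against endothelial cultures 2320 higher and 5617 lower, where edgeR called 4103 and 3940. For day 3 blood the limma split was 2475 higher and 5232 lower against endothelial cultures (edgeR 3932 and 3826) and 730 higher and 159 lower against day 2 blood (edgeR 883 and 347; DESeq2 1363 and 1047). For mesoderm against ES cells it was 3956 higher and 6679 lower (edgeR 5295 and 5421), and for eHB cells against mesoderm 4713 higher and 2230 lower (edgeR 3117 and 3069). Globin sums are high in day 2 blood, and their part in the shift was not tested. Fold changes below are from edgeR unless limma is named.

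Alas2, the erythroid isoform (ENSMUSG00000025270, chromosome X, 150547375 to 150570638, plus strand), had, of the 9 genes, the largest difference between day 2 blood and eHB cells. Day 2 blood held 518 TPM in M5, 248 in FL4, 33.0 in RB4.6.9, 20.8 in FL10 and 17.9 in RB3.6.5, against 7.55 TPM in M5, 1.65 in RB3.6.5, 1.34 in FL4, 1.22 in FL10 and 0.739 in RB4.6.9 in eHB cells. The groups did not overlap and every line rose on its own, by 10.9-fold in RB3.6.5, 17.1-fold in FL10, 44.6-fold in RB4.6.9, 68.6-fold in M5 and 185-fold in FL4 in TPM. The log2 fold change was 7.02 ± 1.40 (SE, adjusted p = 0.00239), and 4.80 (adjusted p = 0.0013) with the 2 globin-rich lines M5 and FL4 left out of both groups. On the TPM scale limma gave 4.62 (adjusted p = 0.00159).

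On day 3 the lines parted. Day 3 blood held 124 TPM of Alas2 in RB3.6.5, 6.42 in FL4, 4.04 in RB4.6.9, 2.41 in M5 and 1.56 in FL10, so that 4 lines stood below their own day 2 level and RB3.6.5 stood 6.95-fold above it. The group difference did not pass (log2 fold change -2.65 ± 1.58, adjusted p = 0.311), and without the day 3 library of RB3.6.5 it was -6.01 (adjusted p = 0.0253). That library is the one day 3 library rich in globin, at 23430 TPM, it has the highest megakaryocyte markers of the day 3 libraries, at 11975 TPM, and it is the shallowest of the series; the part of any of these in its Alas2 level was not tested. Against endothelial cultures, Alas2 in day 3 blood was not called (3.32 ± 1.73, adjusted p = 0.119) and was called at 6.45 (adjusted p = 0.0116) without the endothelial M5 library.

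Endothelial cultures held 20.9 TPM of Alas2 in M5 and 0.891 in FL4, 0.520 in FL10, 0.468 in RB3.6.5 and 0.312 in RB4.6.9. Each line except M5 stood below its own eHB level, by 0.538 to 1.62 on the log2 TPM scale, and M5 stood 2.76-fold above. The 2 groups overlapped, the log2 fold change over all lines was 0.91 ± 1.27 (adjusted p = 0.539; -0.15 on the TPM scale in limma and -0.66 with the line as a block, neither called), and without the endothelial M5 library it was -2.20 (adjusted p = 0.0298). With line M5 left out of both groups it was -1.18 (adjusted p = 0.0392), so the direction of this comparison rests on M5, the endothelial culture with the highest globin and megakaryocyte sums (3043 and 1558 TPM). Day 2 blood exceeded endothelial cultures by 6.00 ± 1.76 (adjusted p = 0.0125), and in each of 5 lines.

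Among the controls, Alas2 was lowest in ES cells and mesoderm. Mesoderm held 0.620, 0.551 and 0.479 TPM, against 0.608, 0.291 and 0.218 TPM in ES cells, which is 4 to 18 counts a library, and the difference was not called (0.89 ± 0.47, adjusted p = 0.104). In eHB cells every line exceeded every mesoderm library, yet the difference did not pass (1.92 ± 0.87, adjusted p = 0.1). HSCs held 8.91 TPM. Yolk sac endothelium held 46.9 and 18.1 TPM and embryo endothelium 159 and 8.06 TPM, with a spread inside the embryo group wider than any difference between the 2 groups (-1.29 ± 1.64, adjusted p = 0.658). In order of group mean, only eHB cells and mesoderm were neighbours with ranges that did not overlap. Exons of Alas2, taken over all annotated transcripts, share 311 bases with Apex2 on the other strand, which averaged 21.8 TPM in ES cells and 13.6 TPM in day 2 blood. Whether these bases lie in the 2 transcripts counted was not checked, and the strand setting of the counting is not stated. The few reads in ES cells and mesoderm therefore cannot be assigned to Alas2 with certainty.

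Alas1, the housekeeping isoform (ENSMUSG00000032786, chromosome 9, 106233455 to 106248654, minus strand), followed another course. Day 3 blood held 314 TPM in M5, 119 in RB4.6.9, 96.2 in RB3.6.5, 71.0 in FL4 and 69.0 in FL10, against 28.4 TPM in M5, 40.7 in RB4.6.9, 42.4 in RB3.6.5, 20.3 in FL4 and 29.6 in FL10 in day 2 blood. Every line rose and the groups did not overlap. The log2 fold change was 1.98 ± 0.45 (adjusted p = 0.0219), but it lost its call without the day 2 library of FL4 (1.88, adjusted p = 0.0553), with line RB3.6.5 left out of both days (2.12, adjusted p = 0.0501) and with M5 and FL4 left out of both days (1.46, adjusted p = 0.0948). The summed leukocyte markers were 2521 to 3256 TPM in day 3 blood, sorted for CD45, and 569 to 1338 TPM in day 2 blood, sorted without it. The 4 macrophage markers in the table summed to 261 TPM in day 3 blood of M5, against 68.3 to 105 TPM in the other day 3 lines and 2.07 to 9.66 TPM in day 2 blood, with C1qa at 0 in both days; their part in the Alas1 level was not tested.

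Endothelial cultures were the other place of high Alas1. They held 86.2 TPM in M5, 79.4 in RB4.6.9, 68.8 in FL10, 66.3 in FL4 and 62.5 in RB3.6.5, against 26.7 to 31.3 TPM in the 5 eHB libraries, a narrow band with a mean of 29.6 ± 1.92 TPM (SD, n = 5). The groups did not overlap, each line rose by 1.04 to 1.47 on the log2 TPM scale, and the log2 fold change was 1.33 ± 0.12 (adjusted p = 4.58e-06). Cultured endothelium also exceeded embryo endothelium, which held 39.0 and 35.2 TPM (0.96 ± 0.18, adjusted p = 0.00455). Yolk sac endothelium, at 60.4 and 56.9 TPM, exceeded embryo endothelium by 0.61 ± 0.18 (adjusted p = 0.0287), a call lost when either yolk sac library was left out (0.62, adjusted p = 0.192 and 0.199). The 4 macrophage markers summed to 593 and 513 TPM in yolk sac endothelium, against 98.0 and 177 TPM in embryo endothelium, and their part in the Alas1 difference was not tested.

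Day 2 blood lay below endothelial cultures in Alas1 (-0.64 ± 0.19, adjusted p = 0.0127), without overlap and in 5 of 5 lines, and this call was lost with M5 and FL4 left out of both groups (-0.49, adjusted p = 0.103) and in the fit of all groups together (-0.66, adjusted p = 0.0507). Against eHB cells it was higher in edgeR (0.78 ± 0.18, adjusted p = 0.00446) and did not pass on the TPM scale, where limma gave 0.07 (adjusted p = 0.757) with a median of -0.56 over all genes; the TPM ranges overlapped, and 3 of 5 lines stood above their eHB level. Alas1 was higher in day 3 blood than in endothelial cultures by 1.29 ± 0.42 (adjusted p = 0.0208), with overlapping ranges. The call was lost on the TPM scale in limma (0.63, adjusted p = 0.15) and with line RB3.6.5 left out of both groups (1.26, adjusted p = 0.0655). In TPM, M5 stood 3.64-fold above its endothelial level, RB3.6.5 1.54-fold, RB4.6.9 1.5-fold and FL4 1.07-fold, and FL10 was level. In mesoderm it averaged 20.6 ± 3.72 TPM, against 17.3 ± 0.656 TPM in ES cells (SD, n = 3 each; 0.58 ± 0.11, adjusted p = 0.00121), and it was not called on the TPM scale. In HSCs it was 32.9 TPM, within the range of day 2 blood. Exons of Alas1, taken over all annotated transcripts, share 465 bases with 4930500F10Rik on the other strand. Whether these bases lie in the 1 transcript counted was not checked. If they do, with no strand setting stated the reads of that pair cannot be told apart there. That would also limit the ratio of the isoforms below.

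**Figure D3:**
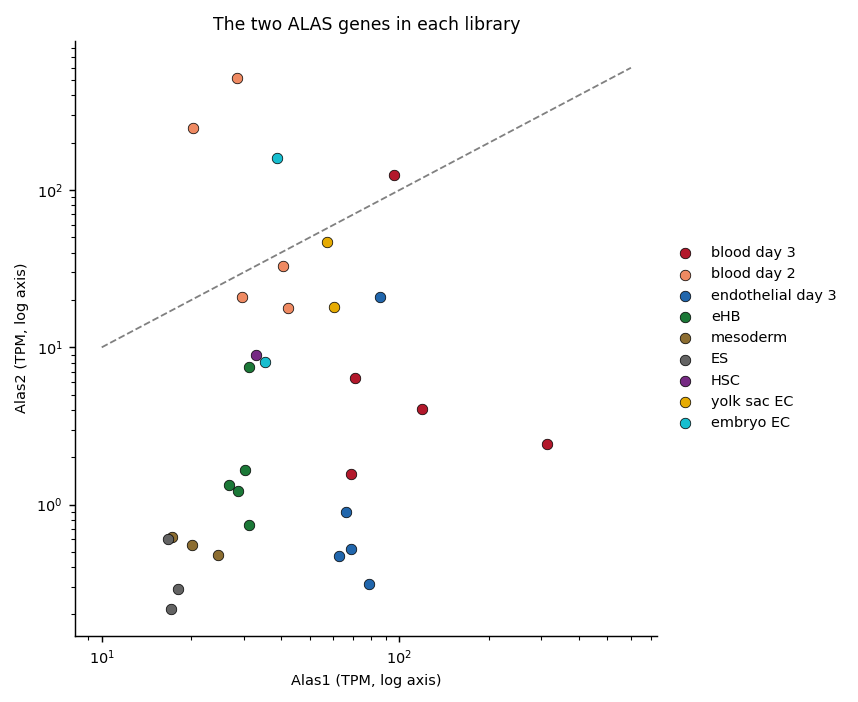
Alas2 against Alas1 in each library (TPM, both axes log), coloured by group, with a dashed line where the isoforms are equal. M5 and FL4 of day 2 blood, 1 embryo endothelium library and RB3.6.5 of day 3 blood lie above the line, and all other libraries lie below it.

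Set against each other, Alas2 exceeded Alas1 in 4 of 31 libraries. Alas2 made up 94.8% of the ALAS transcripts (Alas1 and Alas2 together, in TPM) in day 2 blood of M5, 92.4% in FL4, 44.7% in RB4.6.9, 41.3% in FL10 and 29.7% in RB3.6.5. In eHB cells it made up 19.5% in M5 and 2.31% to 5.15% in the other 4 lines. In day 3 blood the share was 56.4% in RB3.6.5, 8.30% in FL4, 3.29% in RB4.6.9, 2.21% in FL10 and 0.763% in M5, the line that had the largest share on day 2. Endothelial cultures held 19.5% in M5 and 0.392% to 1.33% in the others. Elsewhere it was 45.2% and 23.1% in yolk sac endothelium, 80.3% and 18.6% in embryo endothelium, 21.3% in HSCs, 1.91% to 3.48% in mesoderm and 1.26% to 3.51% in ES cells.

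The log2 ratio of Alas2 to Alas1 (each in TPM plus 0.1) was tested by an exact two-sided permutation test over libraries, adjusted over 7 comparisons. It averaged 1.15 ± 2.54 in day 2 blood and -4.01 ± 1.19 in eHB cells (SD, n = 5 each), a difference of 5.16 with an exact p of 0.00794, the smallest this design can give, and an adjusted p of 0.0278. Against endothelial cultures, at -5.86 ± 2.20, the difference in day 2 blood was 7.00 with the same exact p and adjusted p, and in both comparisons the groups did not overlap. This test takes the libraries as independent, although the same 5 lines recur in these groups. With the lines as pairs, the day 2 ratio was higher in 5 of 5 lines in both comparisons, and an exact sign-flip test within lines gave p = 0.0625 for each, the smallest that 5 pairs allow (adjusted p = 0.104 over 5 comparisons), so neither passes on that test. Day 3 blood averaged -4.05 ± 2.77 and stood 5.2 below day 2 blood (exact p = 0.0317, adjusted p = 0.0741), a difference that did not pass, and RB3.6.5 went the other way. Without the day 3 library of RB3.6.5 the difference was -6.31 (adjusted p = 0.037 by exact permutation). The remaining comparisons did not pass: endothelial cultures against eHB cells gave -1.85 (exact p = 0.143, adjusted p = 0.200), eHB cells against mesoderm 0.98 (exact p = 0.143, adjusted p = 0.200) and day 3 blood against endothelial cultures 1.8 (exact p = 0.302, adjusted p = 0.302). Endothelial cultures against embryo endothelium gave -5.81 (exact p = 0.190, adjusted p = 0.222), where 5 against 2 libraries cannot go below 0.0952. Mesoderm exceeded ES cells by 0.30 and yolk sac endothelium stood 0.96 below embryo endothelium, both without a test because so few libraries cannot pass.

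**Figure D4:**
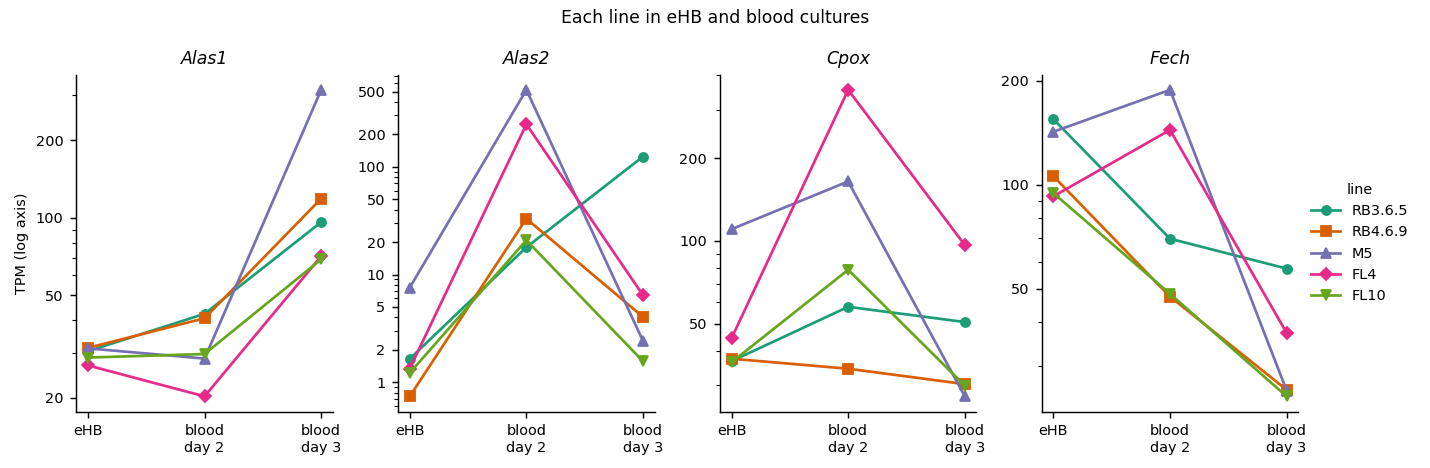
Alas1, Alas2, Cpox and Fech (TPM on log axes) in each of the 5 lines as eHB cells and as day 2 and day 3 blood. Alas2 peaks on day 2 in 4 lines and on day 3 in RB3.6.5, while Alas1 is highest on day 3 in all 5.

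Alad, which condenses pairs of aminolevulinate molecules into the pyrrole porphobilinogen (ENSMUSG00000028393, chromosome 4, 62509169 to 62519918, minus strand), was lowest in endothelial cultures. They held 19.3 TPM in M5, 18.4 in FL4, 15.5 in FL10, 12.2 in RB4.6.9 and 11.2 in RB3.6.5, against 91.2, 76.4, 88.0, 99.5 and 83 TPM in eHB cells of the same lines. The groups lay far apart: the log2 fold change was -2.49 ± 0.18 (adjusted p = 1.17e-06), and all 5 lines fell. Embryo endothelium held 142 and 114 TPM, so cultured endothelium lay below it too (-3.07 ± 0.23, adjusted p = 0.000243).

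Alad in day 2 blood was high in the globin-rich lines. It was 174 TPM in FL4 and 140 in M5, against 53.7 in FL10, 43.1 in RB4.6.9 and 33.1 in RB3.6.5, so that 2 lines stood above and 3 below their own eHB level. The group difference was not called (0.84 ± 0.52, adjusted p = 0.195; -0.28 on the TPM scale in limma, below 0), and with M5 and FL4 left out of both groups Alad was lower in day 2 blood (-0.57, adjusted p = 0.0476). Day 3 blood held 55.7 TPM in FL4 and 21.2 to 30.6 TPM in the others, below day 2 in 5 of 5 lines without a call (-1.78 ± 0.57, adjusted p = 0.0766), and above endothelial cultures without overlap (1.41 ± 0.27, adjusted p = 0.00112). Mesoderm averaged 85.6 ± 5.44 TPM, against 47.4 ± 1.74 TPM in ES cells (SD, n = 3 each), an increase of 1.19 ± 0.11 (adjusted p = 1.16e-05).

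Uros, which closes the ring as uroporphyrinogen III (ENSMUSG00000030979, chromosome 7, 133686243 to 133710072, minus strand), was highest in day 2 blood. It was 144 TPM in M5, 111 in FL4, 50.5 in RB3.6.5, 21.1 in FL10 and 21 in RB4.6.9, against 15.4, 16, 8.97, 13.5 and 9.47 TPM in eHB cells of the same lines. No value overlapped and 5 of 5 lines rose (3.31 ± 0.68, adjusted p = 0.00274). On day 3 it was 34.5 TPM in RB3.6.5 and 10.6 to 13.6 TPM in the other 4, below day 2 in 5 of 5 lines without a call (-2.22 ± 0.75, adjusted p = 0.0883). Endothelial cultures averaged 12.1 ± 1.40 TPM, against 12.7 ± 3.27 TPM in eHB cells (SD, n = 5 each), a difference that was not called (-0.05 ± 0.22, adjusted p = 0.852).

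Urod, which trims the ring's side chains by decarboxylation (ENSMUSG00000028684, chromosome 4, 116989965 to 116994413, minus strand), was the most abundant of the 9 in day 2 blood by group mean. It held 388 TPM in FL4, 322 in M5, 108 in RB3.6.5, 103 in FL10 and 101 in RB4.6.9, against 79.5, 79.5, 58.1, 55.5 and 48.5 TPM in eHB cells of the same lines. The groups did not overlap (2.48 ± 0.54, adjusted p = 0.00365). Day 3 blood held 109 TPM in RB3.6.5 and 39.0 to 55.2 TPM in the others, and its difference from day 2 was not called (-1.96 ± 0.63, adjusted p = 0.0748). Endothelial cultures, at 33.8 to 52.8 TPM, were lower than eHB cells in 5 of 5 lines (-0.56 ± 0.19, adjusted p = 0.0234), a call lost without the endothelial libraries RB4.6.9 (-0.47, adjusted p = 0.0537) or FL10 (-0.51, adjusted p = 0.0515), and without the eHB libraries M5 (-0.45, adjusted p = 0.0567) or FL4 (-0.46, adjusted p = 0.0575). In mesoderm against ES cells, Urod did not pass (-0.28 ± 0.12, adjusted p = 0.0505) and passed with the ES line as a block (-0.28, adjusted p = 0.036). It also passed in edgeR with RLE size factors (-0.29, adjusted p = 0.0434) and with no filter (-0.29, adjusted p = 0.0457). DESeq2 (-0.29, adjusted p = 0.0386) and limma on the TPM scale (-0.61, adjusted p = 0.000426) called it too. The fit of all groups together called 0 of the 9 genes there.

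Cpox, which oxidises coproporphyrinogen in the mitochondrial intermembrane space (ENSMUSG00000022742, chromosome 16, 58670292 to 58717636, plus strand), had the widest range after Alas2. Endothelial cultures held 21.4 TPM in M5, 7.50 in FL4, 6.81 in FL10, 4.30 in RB4.6.9 and 4.17 in RB3.6.5, against 110, 44.3, 36.3, 37.4 and 36.6 TPM in eHB cells of the same lines. All 5 lines fell, by 2.36 to 3.1 on the log2 TPM scale, and M5 was the highest line in both states (-2.56 ± 0.56, adjusted p = 0.00203). Day 2 blood held 354 TPM in FL4, 164 in M5, 78.6 in FL10, 57.7 in RB3.6.5 and 34.4 in RB4.6.9. It exceeded endothelial cultures without overlap (4.65 ± 0.86, adjusted p = 0.000915) and eHB cells with overlap (2.19 ± 0.71, adjusted p = 0.0239). The second call was lost without the day 2 library of FL4 (1.44, adjusted p = 0.0649), without any 1 of the eHB libraries of RB3.6.5, RB4.6.9, FL4 or FL10 (2.07 to 2.13, adjusted p = 0.0512 to 0.0551), and on the TPM scale in limma (1.03, adjusted p = 0.137). Day 3 blood held 96.6 TPM in FL4, 50.8 in RB3.6.5 and 27.3 to 30.2 in the other 3, above endothelial cultures (2.82 ± 0.57, adjusted p = 0.00164). Exons of Cpox share 204 bases with Gpr15 on the other strand, whose highest group mean was 0.716 TPM, in day 3 blood.

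Ppox, the next oxidase of the mitochondrial inner membrane (ENSMUSG00000062729, chromosome 1, 171275990 to 171281186, minus strand), held 204 TPM in day 2 blood of FL4, 178 in M5, 51.9 in RB3.6.5, 42.8 in FL10 and 41.9 in RB4.6.9, against 33.1, 34.5, 32.4, 19.5 and 24.9 TPM in eHB cells of the same lines. The groups did not overlap and 5 of 5 lines rose (2.69 ± 0.61, adjusted p = 0.0045). Endothelial cultures averaged 29.2 ± 7.55 TPM, against 28.9 ± 6.45 TPM in eHB cells (SD, n = 5 each; 0.05 ± 0.22, adjusted p = 0.847). Mesoderm was lower than ES cells, at 20.9, 17.9 and 14.1 TPM against 35.3, 33.7 and 32.3 TPM (-0.61 ± 0.16, adjusted p = 0.0056). Exons of Ppox, taken over all annotated transcripts, share 791 bases with B4galt3 on the other strand, which averaged 16.5 TPM in day 2 blood and 44.9 TPM in eHB cells. Whether these bases lie in the 1 transcript counted was not checked. If they do, with no strand setting stated the reads of the pair cannot be told apart there.

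Fech, the enzyme that inserts iron to finish heme (ENSMUSG00000024588), was higher in eHB cells than in mesoderm. The eHB lines held 155 TPM in RB3.6.5, 142 in M5, 106 in RB4.6.9, 94.7 in FL10 and 92.7 in FL4, against 26.1, 22.3 and 21.1 TPM in mesoderm. The groups lay well apart (2.03 ± 0.19, adjusted p = 0.000169), a 4.08-fold difference, and the media of these groups differ as well as the cells. Endothelial cultures held 24.1 to 30.5 TPM and fell below eHB cells in 5 of 5 lines (-2.06 ± 0.16, adjusted p = 1.97e-06), a 4.16-fold difference. Day 2 blood held 188 TPM in M5, 144 in FL4, 69.9 in RB3.6.5, 48.4 in FL10 and 47.5 in RB4.6.9, so M5 and FL4 stood above and 3 lines below their eHB level (0.59 ± 0.49, adjusted p = 0.333; -0.44 on the TPM scale in limma, below 0). Thus Fech and Alad were high in eHB cells and not called higher in day 2 blood, while Uros, Urod and Ppox rose in each of 5 lines. Day 3 blood held 57.3 TPM in RB3.6.5 and 24.4 to 37.3 TPM in the others, below day 2 in 5 of 5 lines without a call (-1.73 ± 0.59, adjusted p = 0.0888). HSCs, at 14.9 TPM, held the lowest level of any library.

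Slc25a38, a mitochondrial carrier that brings in glycine for the first step (ENSMUSG00000032519, chromosome 9, 120110374 to 120124504, plus strand), kept within 18.1 to 54.4 TPM over all 31 libraries. In eHB cells it was 30.9 TPM in FL4, 28.5 in M5, 27.4 in FL10, 19.2 in RB4.6.9 and 18.1 in RB3.6.5, against 51.2, 47.6 and 47.0 TPM in mesoderm, a decrease without overlap (-1.28 ± 0.22, adjusted p = 0.00205). The ES-derived eHB lines, which also differed from the others in medium, were the lowest of the 5. Day 2 blood held 54.4 TPM in FL4, 48.1 in M5, 34.1 in RB3.6.5, 29.7 in RB4.6.9 and 26.4 in FL10, higher than eHB cells with overlap (1.38 ± 0.34, adjusted p = 0.00683). Against endothelial cultures, at 27.5 to 34.1 TPM, the rise of 0.96 ± 0.30 (adjusted p = 0.0173) was lost on the TPM scale in limma (0.27, adjusted p = 0.262) and with line M5 left out of both groups (0.78, adjusted p = 0.0566).

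Some lines were high for most of the 9 genes in 1 culture state and not in another. M5 was among the 2 highest lines for 9 of 9 genes as eHB cells and for 9 of 9 as endothelial cultures. In day 2 blood M5 and FL4 were each among the 2 highest for 8 of 9, the exception for both being Alas1. In day 3 blood FL4 was among the 2 highest for 8 of 9 and RB3.6.5 was the highest for 5, while M5 was the lowest for 5 of 9 and the highest for Alas1. The 9 genes of 1 library share its depth and its cells, so these counts describe libraries and are no test of lines.

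**Figure D5:**
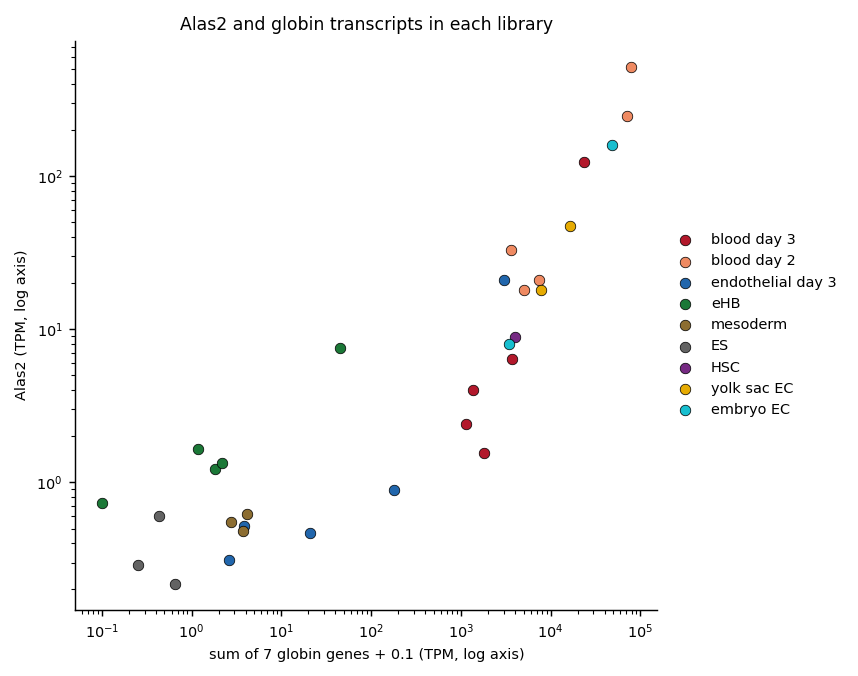
Alas2 (TPM, log axis) against the sum of 7 globin genes (TPM plus 0.1, log axis) in each library, coloured by group. The 4 libraries with more than 100 TPM of Alas2 are also the 4 with the highest globin sums, 23430 to 78465 TPM.

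Genes whose group means run most like Alas2 were sought among 12366 genes with at least 5 TPM in some group, by Pearson's r of log2(TPM + 1) over the 9 group means, which share their libraries with Alas2. The 5 closest were Hbq1b (r = 0.978), Hba-x (0.971), Trim10 (0.961), Slc4a1 (0.955) and Tmem261 (0.953). Hba-x is an embryonic alpha-like globin and Slc4a1 the band 3 anion exchanger of red cells. The 5 closest to Alas1 were Met (0.935), Nlrp3 (0.920), Arpc1b (0.913), Cd14 (0.909) and Mnda (0.895). Their highest group means, all in day 3 blood, were 5.73, 9.67, 589, 8.36 and 5.60 TPM in that order. Apart from Arpc1b, these genes lay near the floor in most groups. Met is the receptor of hepatocyte growth factor, Nlrp3 an inflammasome sensor and Cd14 a lipopolysaccharide co-receptor of myeloid cells. No gene appears in both sets, which were picked by rank and carry no test.

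Iron reaches ferrochelatase through a supply chain of which 15 genes were followed. In endothelial cultures against eHB cells 4 of the 15 rose and 9 fell, 86.7% called where 70.0% of all genes were, with a median log2 fold change of -0.91 and of -0.04 over all genes. Tfrc, the transferrin receptor, fell to 25 ± 4.66 TPM, against 190 ± 43.2 TPM in eHB cells (SD, n = 5 each; -2.88 ± 0.19, adjusted p = 7.93e-07), and Hspa9, a mitochondrial chaperone of iron-sulfur assembly, fell by 1.82 on the log2 scale. Slc40a1, the iron exporter ferroportin, rose to 26.7 ± 13.1 TPM, against 1.42 ± 1.04 TPM in eHB cells (4.27 ± 0.62, adjusted p = 0.000141). In day 2 blood against eHB cells 4 rose and 3 fell, a share of 46.7% that is below the background of 54.1% (median 0.31, against 0.01 over all genes): Steap3, an endosomal iron reductase, rose by 3.31 ± 0.71 (adjusted p = 0.00332) and Tfrc was lower (-1.83 ± 0.38, adjusted p = 0.00287). So the uptake receptor was lower in both kinds of progeny than in eHB cells, also in day 2 blood, where Alas2 was higher. Against endothelial cultures, 9 rose and 1 fell in day 2 blood and 9 rose and 2 fell in day 3 blood (medians 0.76 and 0.84, against 0.04 and 0.02 over all genes), shares of 66.7% and 73.3% where 64.4% and 61.3% of all genes were called, with Slc40a1 the largest fall in each (-2.63 ± 0.59 and -2.65 ± 0.72, adjusted p = 0.0031 and 0.00847). Between the blood days 0 of 15 passed in edgeR, where 4 had an unadjusted p under 0.05 and DESeq2 called 2, at a median of -0.08 and a background of 10.2%.

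Of 13 genes of heme transport and breakdown, 11 were measured. In day 2 blood against eHB cells 7 rose and 1 fell, 72.7% called where 54.1% of all genes were (median 1.62); Blvrb, a biliverdin reductase abundant in red cells, reached 344 ± 378 TPM, against 40.8 ± 12.3 TPM in eHB cells (SD, n = 5 each; 3.93 ± 0.85, adjusted p = 0.00362). The comparison of endothelial cultures with eHB cells had 3 that rose and 4 that fell (median -0.14), a share of 63.6% at a background of 70.0%. Hmox1, the inducible heme oxygenase that breaks heme down, rose to 279 ± 108 TPM, against 113 ± 18.9 TPM in eHB cells (1.33 ± 0.28, adjusted p = 0.00162), and Hmox2, its constitutive partner, rose by 1.69 ± 0.12 (adjusted p = 1.18e-06). Endothelial cultures thus had more Alas1 and both heme oxygenases and less Alad, Urod, Cpox and Fech than eHB cells. Against endothelial cultures, day 2 blood had 6 higher and 1 lower (median 1.12), Hmox1 being the lower one (-2.01 ± 0.45, adjusted p = 0.00292), and day 3 blood 5 higher and 1 lower (median 0.44), shares of 63.6% and 54.5% that lie near or below the backgrounds of 64.4% and 61.3%. Between blood days 1 of 11 was called, at a background of 10.2%: Abcg2, a porphyrin and drug exporter, fell to 34.6 ± 5.62 TPM in day 3 blood, against 87.7 ± 12.9 TPM in day 2 blood (-1.44 ± 0.22, adjusted p = 0.00331).

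Of 12 genes that control ALAS, 11 could be tested in day 2 blood against eHB cells, where 5 rose and 1 fell (median 0.18), 54.5% called at a background of 54.1%. Gata1, the erythroid and megakaryocyte factor, averaged 256 ± 171 TPM, against 5.60 ± 9.45 TPM in eHB cells (SD, n = 5 each; 6.34 ± 1.62, adjusted p = 0.00818), and Nfe2 rose by 9.92 ± 0.96 (adjusted p = 8.31e-05). Ireb2, 1 of the iron regulatory proteins that bind the Alas2 hairpin printed above, was lower (-1.11 ± 0.25, adjusted p = 0.0047). Against endothelial cultures, Klf1, a red cell factor that binds CACCC-type sites, averaged 105 ± 142 TPM in day 2 blood and 0.889 ± 1.13 TPM in endothelial cultures (7.63 ± 1.55, adjusted p = 0.00165), with 7 of 12 higher and 2 lower (median 0.99) at a background of 64.4%. In day 3 against day 2 blood 1 of 11 was called, near the background of 10.2%: Bach1, a repressor that senses heme, was higher (0.71 ± 0.19, adjusted p = 0.0409). In endothelial cultures against eHB cells 2 rose and 5 fell (median -0.35), 58.3% called at a background of 70.0%, and Bach1 was among the higher (0.96 ± 0.17, adjusted p = 0.000482).

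The supply of ALAS substrates was read from 7 genes. In endothelial cultures against eHB cells 5 fell and the other 2 did not pass, 71.4% called at a background of 70.0% (median -0.88, against -0.04 over all genes): Slc6a9, a plasma membrane glycine transporter, fell to 1.37 ± 0.492 TPM, against 17.1 ± 3.48 TPM in eHB cells (SD, n = 5 each; -3.61 ± 0.28, adjusted p = 1.90e-06), and Shmt2, which makes glycine in mitochondria, fell by 2.92 on the log2 scale. Of the same 7, 5 rose and 1 fell in day 2 blood against endothelial cultures (median 0.99; background 64.4%), led by Slc6a9 (4.14 ± 0.56, adjusted p = 0.000148) and Shmt2 (2.40 ± 0.20, adjusted p = 1.36e-05). Against eHB cells 2 fell and 5 did not pass in day 2 blood (median 0.12), which is below the background of 54.1%. Those that fell were Suclg2 and Sucla2, subunits of succinyl-CoA synthetase (-0.95 ± 0.29 and -0.43 ± 0.11, adjusted p = 0.019 and 0.0104). Slc6a9 was the 1 gene of 7 called between the blood days, at a background of 10.2%, and was lower on day 3 (-2.04 ± 0.49, adjusted p = 0.0289), beside a glycine carrier of mitochondria, Slc25a38, that was not called.

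The red cell lists give the setting in which Alas2 was high. In day 2 blood against eHB cells 7 of 8 tested erythroid genes rose (median 5.09), among them Kel, which encodes the Kell blood group protein (5.86 ± 1.33, adjusted p = 0.00454), and 7 of 7 globin genes rose (6 of 7 called by DESeq2), where 54.1% of all genes were called. The globins summed to 0 to 45.4 TPM in eHB cells, and 1 was testable in endothelial cultures against those cells. They thus passed the filter on low counts largely through blood, so a rise was nearly fixed beforehand. Their counts here and against endothelial cultures are therefore no support beside the backgrounds. The erythroid sum in eHB cells was low as well, at 1.10 to 66.2 TPM. Of 10 measured erythroid genes, 7 were testable in endothelial cultures against eHB cells. In day 2 blood 8 were testable against eHB cells and 9 against endothelial cultures. Some erythroid genes thus passed the filter largely through blood, and their counts in these comparisons are no support beside the backgrounds either. The globin genes are near-identical copies in part, and the authors' estimates may divide reads among them with error. Against endothelial cultures 9 of 9 erythroid genes and 5 of 7 globins rose in day 2 blood, at a background of 64.4%. In day 3 blood 4 of 8 erythroid genes and 1 of 7 globins rose, below the background of 61.3%. Between the blood days 1 of 9 erythroid genes was called, Trim10, lower on day 3 (-5.32 ± 1.31, adjusted p = 0.0311), at a background of 10.2%. Of the 7 globins 0 passed there in edgeR, 1 with an unadjusted p under 0.05, and DESeq2 called 0. In endothelial cultures against eHB cells 0 of 7 erythroid genes passed in edgeR (1 with an unadjusted p under 0.05, 3 called by DESeq2) at a background of 70.0%. The 1 testable globin, Hbb-y, an embryonic beta-like globin, was called higher in edgeR (8.88 ± 2.44, adjusted p = 0.00784) and not in DESeq2, which called 0 of 1. Its mean of 210 ± 440 TPM in endothelial cultures, against 0.5 ± 0.534 TPM in eHB cells (SD, n = 5 each), rests on 1 library at 997 TPM, and the median was 2.94 TPM.

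Among the controls, the same lists moved less evenly. In mesoderm against ES cells Glrx5, needed for iron-sulfur cluster assembly, rose to 222 ± 11.4 TPM, against 55.7 ± 5.65 TPM in ES cells (SD, n = 3 each; 2.33 ± 0.12, adjusted p = 2.90e-07), and Tfrc fell to 72.9 ± 5.43 TPM, against 269 ± 18.8 TPM (-1.55 ± 0.09, adjusted p = 7.05e-07). Of the 15 iron genes 9 rose and 4 fell there, of 11 heme transport genes 6 rose and 1 fell, of 10 testable ALAS regulators 2 rose and 3 fell, and of 7 substrate genes 4 rose, where 79.1% of all genes were called. Of these 4 lists only the iron genes, at 86.7%, exceeded that share, and the others, at 63.6% (transport), 5 of 10 (regulators) and 57.1% (substrates), lay below it. In eHB cells against mesoderm 4 rose and 4 fell of 15 iron genes, 3 rose and 2 fell of 11 transport genes, and 2 rose of 7 substrate genes, at a background of 46.6%. These shares are 53.3%, 45.5% and 28.6%. Of 10 regulators 0 passed in edgeR, 2 with an unadjusted p under 0.05, and DESeq2 called 2. Slc25a37, the mitochondrial iron importer mitoferrin-1, was higher there with Fech, at 43.0 ± 9.27 TPM in eHB cells and 10.1 ± 2.89 TPM in mesoderm (SD, n = 5 and 3; 1.8 ± 0.24, adjusted p = 0.00067).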

How the data were processed

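The authors deposited 2 gene tables for the 31 libraries: expected counts, which are estimates that share reads between transcripts, and TPM values, renormalised per the file's own name in a way not given in the sources used here. CASAVA 1.8.2, RSEM 1.2.3, Bowtie 0.12.9 and build mm10 come from the submitters' processing notes. The header of the TPM table has 1 name too many, and columns were matched by name with that name left out; the detected genes of 31 of 31 TPM columns were closest to those of their own count column.

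Expected counts were rounded and tested with edgeR 4.0.16 in R 4.3.3 (filterByExpr, TMM, robust quasi-likelihood F test, Benjamini-Hochberg over all genes tested, threshold 0.05), with only the 2 groups compared in each fit; the standard error is the unshrunken coefficient over the square root of F. The procedure was tested on simulated data. Alternatives were DESeq2 1.42.0, limma 3.58.1 on log2(TPM + 1), RLE size factors, no filter, all groups in 1 fit, the cell line as a block, and each library left out; leaving out whole lines was added after the values were seen. Lines pair the samples because the titles name the same line in each culture, and the correlation of deviations from group means within a line was 0.0485 to 0.683 among eHB, endothelial and blood groups and -0.0944 to 0.079 between mesoderm and ES cells. By this correlation, 3 of 5 day 3 blood libraries were closest to their own line in day 2 blood, and 4 of 5 in endothelial cultures. It was 2 of 3 for mesoderm against ES cells and 5 of 5 in the other culture comparisons. The ALAS ratio was tested by exact permutation of libraries and, added after the values were seen, by exact sign flips within lines, with a pseudocount of 0.1 TPM and, as alternatives, 1 and 0.01 TPM. The 9 genes and the companion lists (iron supply, heme transport and breakdown, control of ALAS, ALAS substrates, erythroid genes, globins) were chosen with earlier results of these data known. From each list the text may name the 2 largest called changes in either direction where the higher group averaged at least 5 TPM. Annotation is GENCODE on GRCm38, and promoter sequences are from RefSeq.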

Additional observations from a re-analysis of the deposited data

Results flagged for a closer look

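Of 36 pairs of a gene and a group of 5 libraries, 10 had a library set apart from the other 4 by Dixon's test at the 95% level. That level assumes normal values, while the test was run on TPM, and genes of the same library are not independent. The number of flags therefore cannot be set against chance. Line M5 accounts for 6: Alas1 in day 3 blood (314 TPM, against 69.0 to 119 in the others), Alas2 in eHB cells (7.55 against 0.739 to 1.65) and in endothelial cultures (20.9 against 0.312 to 0.891), Cpox in eHB cells (110 against 36.3 to 44.3) and in endothelial cultures (21.4 against 4.17 to 7.50), and Ppox in endothelial cultures (42.5 against 24.6 to 27.2). Line RB3.6.5 accounts for 3, all in day 3 blood: Alas2 (124 TPM against 1.56 to 6.42), Uros (34.5 against 10.6 to 13.6) and Urod (109 against 39.0 to 55.2). The last is Alad in day 3 blood of FL4 (55.7 TPM against 21.2 to 30.6).

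Of 45 pairs of a gene and a comparison among the cultures, 1 split by the origin of the lines: Uros in endothelial cultures against eHB cells was higher in both ES-derived lines (log2 TPM change of 0.661 and 0.280) and lower in the other 3 lines, so that the mean changes differed by 0.84. This difference between origins was not tested.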

How the results depend on the processing

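Of 37 called fold changes of the 9 genes, 21 kept their call and direction under every alternative run, and 26 under all of them but the fit of all groups together; 4 of 1269 recomputed values turned sign with a call on either side. For Alas2 in endothelial cultures against eHB cells (0.91) these were -2.20 without the endothelial M5 library (1.96 without the eHB M5 library), -1.18 without line M5 and -1.44 without lines M5 and FL4, and for Alad in day 2 blood against eHB cells (0.84) -0.57 without M5 and FL4. Leaving out whole lines was chosen after seeing the data.

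Counts of genes called moved as follows, and smaller moves are not all listed. In day 2 blood against eHB cells (7) limma on TPM did not call Alas1 (0.07, adjusted p = 0.757) or Cpox (1.03, adjusted p = 0.137), and Slc25a38 passed narrowly (0.59, adjusted p = 0.0492). Against endothelial cultures (9) limma did not call Slc25a38 in day 2 blood (0.27, adjusted p = 0.262). In mesoderm against ES cells (6) the fit of all groups called 0, with 1 at an unadjusted p under 0.05, and in yolk sac against embryo endothelium (1) it called 0, with 0 at that level. In eHB cells against mesoderm (2) limma on TPM called 4. In day 3 against day 2 blood (1) DESeq2 and the fit of all groups each called 7, leaving out line RB3.6.5 gave 2, and leaving out M5 and FL4 gave 0 in edgeR, with 2 at an unadjusted p under 0.05. In day 3 blood against endothelial cultures (3) DESeq2 called 7, the fit of all groups 5, and edgeR without line M5 7. Leaving out 1 library at a time, edgeR called 6 to 8 in mesoderm against ES cells, 2 in eHB cells against mesoderm, 4 to 6 in endothelial cultures against eHB cells, 6 to 7 in day 2 blood against eHB cells, 0 to 5 in day 3 against day 2 blood, 9 in day 2 blood and 3 to 7 in day 3 blood against endothelial cultures, 3 to 5 in endothelial cultures against embryo endothelium and 0 to 3 in yolk sac against embryo endothelium.

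The Alas2 to Alas1 ratio under the same omissions ranged from 4.40 to 5.76 in day 2 blood against eHB cells (5.52 without day 2 RB4.6.9; 5.13, 4.85 and 5.65 without eHB RB3.6.5, RB4.6.9 and M5) and from 6.25 to 7.96 against endothelial cultures (7.60 and 7.37 without day 2 RB3.6.5 and RB4.6.9, 6.77 and 6.57 without endothelial RB3.6.5 and RB4.6.9; adjusted p = 0.0556 throughout by exact permutation, the lowest that 4 against 5 libraries allow here, so the lost calls say nothing about stability), from -6.31 to -4.44 in day 3 against day 2 blood, from -2.80 to -1.35 in endothelial cultures against eHB cells, from 0.48 to 1.28 in eHB cells against mesoderm, from 0.70 to 2.76 in day 3 blood against endothelial cultures, from -7.88 to -3.74 in endothelial cultures against embryo endothelium, from 0.07 to 0.66 in mesoderm against ES cells and from -3.03 to 1.11 in yolk sac against embryo endothelium. Of these omissions, the endothelial M5 library brought a call in endothelial cultures against eHB cells (-2.80, adjusted p = 0.037 by exact permutation). The day 3 library of RB3.6.5 brought a call in day 3 against day 2 blood (-6.31, adjusted p = 0.037 by exact permutation). In both adjustments the other comparisons kept all their libraries. With the line as a replicate block, 7 genes were called in mesoderm against ES cells (Urod was added at -0.28), and the block changed no other call of a gene. For the ratio, exact sign flips within lines, added after seeing the data, gave 5.16 and 7.00 for day 2 blood against eHB cells and endothelial cultures (exact p = 0.0625 for each, the smallest that 5 pairs allow; adjusted p = 0.104), a design in which no call can pass. Low counts limit Alas2 in ES cells and mesoderm (4 to 18 counts a library), and 2 primary libraries a group limit the endothelial comparisons.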
